A study of Mus musculus with 12 samples.

Results

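Chemokines are small secreted or membrane-held proteins that set the direction in which leukocytes move. Each is read by one or more G protein-coupled receptors on the responding cell. The gene symbols follow the protein family. Ccl, Cxcl and Cx3cl name ligands, Ccr, Cxcr and Cx3cr name signaling receptors, and Ackr names atypical receptors that bind and remove chemokines without the usual G protein signal. In a resting mammary gland they are made by fibroblasts, adipose stroma, endothelium, macrophages and epithelium, and tumors of the breast are known to change both which cells make them and which leukocytes answer.

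The genes described here are all rows of the count table whose symbol is that of a chemokine ligand or receptor of these families. There are 52 of them among 16411 genes, 33 ligands and 19 receptors. They were measured by poly A RNA sequencing in 6 mammary tumors and in benign mammary tissue of 6 further mice. Every mouse was a female heterozygous for MMTV-Neu-NDL-YD5 on an FVB background, and none was treated. In this line the mouse mammary tumor virus promoter drives an activated HER2 (Neu) receptor in mammary epithelium, and the benign mice carried the transgene too. The benign tissue was mammary gland in which no tumor was seen, dissected far from any tumor, and for the RNA work the 2 kinds of tissue were taken from different animals. The age of each mouse is not given in the labels. The samples are named tumor 1 to 6 and benign 1 to 6.

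Total counts lay between 5240853 and 8588567 per sample, so that 3 counts corresponded to 0.329 to 0.556 CPM (counts relative to library size, after TMM scaling for library composition). Erbb2, the gene for HER2, lay between 44.8 and 73.7 CPM in benign tissue and between 1989.4 and 16634.2 CPM in tumors, so the labels of all 12 samples held. Of the 52 genes, 30 passed the expression filter of edgeR and were tested among 13191 genes, and 22 did not pass. Called means an adjusted p under 0.1 in the two-sided quasi-likelihood test of edgeR, and every adjusted p below comes from that test.

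Benign 1 differed from the other benign samples before any comparison with tumors. Its 8 B cell markers (Ms4a1, Cd79a, Pax5 and others) summed to 822.6 CPM, against 1.24 to 8.37 CPM in benign 2 to 6 and 0 to 1.79 CPM in tumors. Its 8 T cell markers summed to 755.1 CPM, against 10.5 to 19.3 CPM and 3.2 to 16.9 CPM. Every result was therefore also computed without benign 1, on 13297 genes that then passed the filter. Benign 3, 4 and 6 were rich in skeletal muscle transcripts, whose 8 markers reached 83824.1 CPM in sum.

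In the fit of all 12 samples, 5 of the 30 tested genes rose in tumors and 18 fell, while 7 did not pass the threshold. Among all genes tested, 28.2% were called higher and 34.8% lower. Without benign 1, 6 rose, 17 fell and 7 did not pass, beside 31.5% and 32.4% of all genes tested. Every tumor lay above every benign sample for 2 of the 30 genes and below for 12, beside 14.7% and 21.2% of all genes tested. Without benign 1 these counts were again 2 and 12, beside 18.0% and 22.5%. The median log2 fold change was -1.54 over the 30 tested genes and -0.06 over all genes tested, and without benign 1 it was -1.04 and 0.01. A gene that is silent in one group passes the filter only through the other group, so these figures describe the 30 genes and not the 52. By kind, 3 of the 20 tested ligands rose and 12 fell, and 2 of the 10 tested receptors rose and 6 fell.

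**Figure D1:**
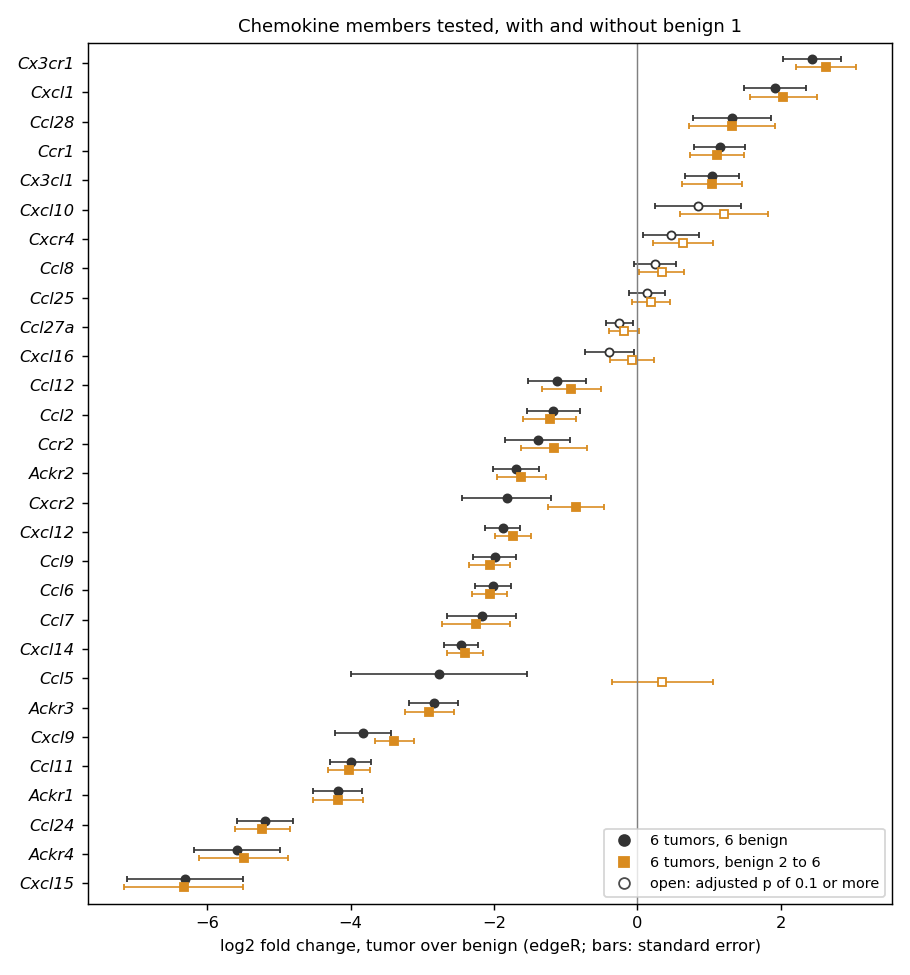
Log2 fold changes, tumor over benign, of 29 chemokine genes that passed the filter, with standard errors. Black circles are the fit of 6 tumors and 6 benign samples, orange squares the fit without benign 1, and open symbols did not pass an adjusted p of 0.1. Ccl5 is the gene whose direction depended on benign 1, at -2.77 with it and 0.35 without it.

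The ligands of Cxcr2 and those of Cxcr3 sit in separate clusters on chromosome 5. In the first, Cxcl1 rose and Cxcl15 fell, and in the second Cxcl9 fell while Cxcl10 did not pass the threshold. The stretches of 250 bases before the annotated start of 5 of these genes are given here to set these neighbours side by side. They are written 5' to 3' on the strand of the gene (RefSeq, GRCm38.p6). Capitals mark matches to the consensus site of NF-kB, a factor of inflammatory signaling, and, in Cxcl10, also a match to GAAANNGAAA, the core of the interferon-stimulated response element.
Cxcl1 (chr5:90890995-90891244, plus strand): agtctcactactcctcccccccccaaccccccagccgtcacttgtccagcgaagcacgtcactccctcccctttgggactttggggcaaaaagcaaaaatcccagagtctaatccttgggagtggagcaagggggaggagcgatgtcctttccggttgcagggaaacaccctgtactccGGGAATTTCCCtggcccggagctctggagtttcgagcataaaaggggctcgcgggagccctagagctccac
Cxcl2 (chr5:90903649-90903898, plus strand): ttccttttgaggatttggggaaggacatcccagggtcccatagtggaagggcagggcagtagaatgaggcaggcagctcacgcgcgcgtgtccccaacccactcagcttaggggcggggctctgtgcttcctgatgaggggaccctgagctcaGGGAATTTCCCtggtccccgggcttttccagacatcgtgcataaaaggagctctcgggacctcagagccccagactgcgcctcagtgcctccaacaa
Cxcl15 (chr5:90794284-90794533, plus strand): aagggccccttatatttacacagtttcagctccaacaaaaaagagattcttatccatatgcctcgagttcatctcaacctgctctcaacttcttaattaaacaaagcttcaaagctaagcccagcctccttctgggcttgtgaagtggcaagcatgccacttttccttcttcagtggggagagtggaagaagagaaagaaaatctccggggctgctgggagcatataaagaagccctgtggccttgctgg
Cxcl9 (chr5:92328080-92328329, minus strand): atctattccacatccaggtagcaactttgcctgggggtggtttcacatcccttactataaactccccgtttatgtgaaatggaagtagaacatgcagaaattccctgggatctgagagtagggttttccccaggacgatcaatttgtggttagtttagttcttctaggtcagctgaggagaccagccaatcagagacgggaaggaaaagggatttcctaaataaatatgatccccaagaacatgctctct
Cxcl10 (chr5:92348890-92349139, minus strand): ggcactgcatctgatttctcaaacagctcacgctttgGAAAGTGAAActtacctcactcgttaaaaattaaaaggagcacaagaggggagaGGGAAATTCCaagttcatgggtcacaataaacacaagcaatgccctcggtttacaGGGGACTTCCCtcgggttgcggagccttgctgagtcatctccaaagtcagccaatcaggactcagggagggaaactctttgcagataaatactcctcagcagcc

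Both strands were searched. The stretches of Cxcl1 and Cxcl2 each hold the same 11 letters, GGGAATTTCCC, which contain 2 overlapping matches to the NF-kB consensus, and they begin 71 and 97 bases before the start. Cxcl10 holds 2 separate NF-kB stretches and 1 GAAANNGAAA match, which begins 213 bases before the start and overlaps neither of them. Neither set of letters was found in the stretches of Cxcl15 or Cxcl9. Of the 52 genes, 38 had a promoter in the RefSeq table. The NF-kB consensus was in the 250 bases of 10 of them (Ackr2, Ccl1, Ccl20, Ccl9, Ccr1, Ccr3, Ccr6, Cxcl1, Cxcl10 and Cxcl2), beside 8.23% of the 27025 genes in that table, and GAAANNGAAA was in 3 (Ccl19, Cxcl10 and Cxcl14), beside 3.46%. Per promoter the shares were 7.25% and 2.98% of 32851. Of the 10 genes with the NF-kB consensus, Cxcl1 and Ccr1 rose, Ackr2 and Ccl9 fell, and Cxcl10 did not pass the threshold. The others of these 10 were not tested. Sites that depart from the consensus were not searched for. A match describes letters in this window and is not a measurement of binding.

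The first cluster (chr5:90759360-90905938, GENCODE M21 models on GRCm38) holds Cxcl5, Cxcl15, Cxcl1 and Cxcl2. Their products carry the ELR motif before the first cysteines and draw neutrophils, those of Cxcl1, Cxcl2 and Cxcl5 through Cxcr2. Cxcl1, made on inflammatory stimulation by epithelium and stroma, lay between 0.356 and 2.49 CPM in benign tissue (median 1.52) and between 2.56 and 8.66 CPM in tumors (median 5.13). The groups did not overlap, although benign 6 and tumor 5 were close. Cxcl1 rose by 1.92 on the log2 scale (standard error 0.43, adjusted p = 0.0021), and by 2.04 without benign 1.

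Cxcl2 and Cxcl5, which act on the same receptor, did not pass the filter. Cxcl2 had 4 counts over the 6 benign samples and 29 over the 6 tumors, with tumors from 0 to 1.15 CPM and benign samples from 0 to 0.185 CPM. Cxcl5 had 0 counts in benign tissue and 30 in tumors, from 0 to 1.56 CPM. Against a floor of 3 counts over the benign group it was at least 8.76-fold higher in tumors, a bound that covers counting error only. Without benign 1 the bound was 7.6-fold.

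Cxcl15, known as lungkine for its expression in lung epithelium, went the other way. It lay between 8.87 and 54.2 CPM in benign tissue (median 22.6), with benign 4 highest, and at 0 in 3 of the 6 tumors with a highest value of 1.2 CPM in tumor 3. No tumor reached the lowest benign sample. The log2 difference was -6.31 (standard error 0.81, adjusted p = 2.5e-05) and -6.33 without benign 1. Cxcr2, the receptor of Cxcl1, Cxcl2 and Cxcl5, is carried mainly by neutrophils. It lay between 1.42 and 13.5 CPM in benign tissue (median 2.13) and between 0.275 and 1.87 CPM in tumors (median 0.988). Benign 1 held the value of 13.5 CPM, and the next highest benign sample had 2.67 CPM. Cxcr2 fell by 1.82 (standard error 0.62, adjusted p = 0.023) with benign 1 and by 0.85 (standard error 0.39, adjusted p = 0.084) without it. The 4 neutrophil markers in the table summed to 3.17 to 7.78 CPM in benign tissue and 2.33 to 7.1 CPM in tumors, so few transcripts of these cells were found in either group.

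The second cluster (chr5:92321347-92365485) holds Cxcl9, Cxcl10 and Cxcl11, the interferon-induced ligands of Cxcr3, a receptor of activated T cells and natural killer cells. Cxcl9 lay between 10.4 and 39.1 CPM in benign tissue (median 13.2) and between 0.767 and 2.02 CPM in tumors (median 1.09). All tumors were lower than all benign samples, and benign 1 was the highest of those. Cxcl9 fell by 3.83 (standard error 0.39, adjusted p = 3.0e-06), and by 3.39 (standard error 0.27) without benign 1.

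Its neighbours gave other values. Cxcl10 lay between 0 and 2.78 CPM in benign tissue and between 0.963 and 5.67 CPM in tumors, and its log2 fold change of 0.85 did not pass (adjusted p = 0.25). Cxcl11 did not pass the filter and exceeded 1 CPM only in tumor 4, at 2.83 CPM. Tumor 4 was also the tumor with the most Cxcl10 and, at 2.02 CPM, the most Cxcl9. Cxcr3 itself did not pass the filter, with 13.9 CPM in benign 1, 0.355 to 1.91 CPM in benign 2 to 6 and 0 to 0.54 CPM in tumors. The 5 natural killer cell markers summed to 50 CPM in benign 1, 6.99 to 11.7 CPM in benign 2 to 6 and 0.384 to 2.83 CPM in tumors. Their part in the difference of Cxcl9 and Cxcr3 was not tested.

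**Figure D2:**
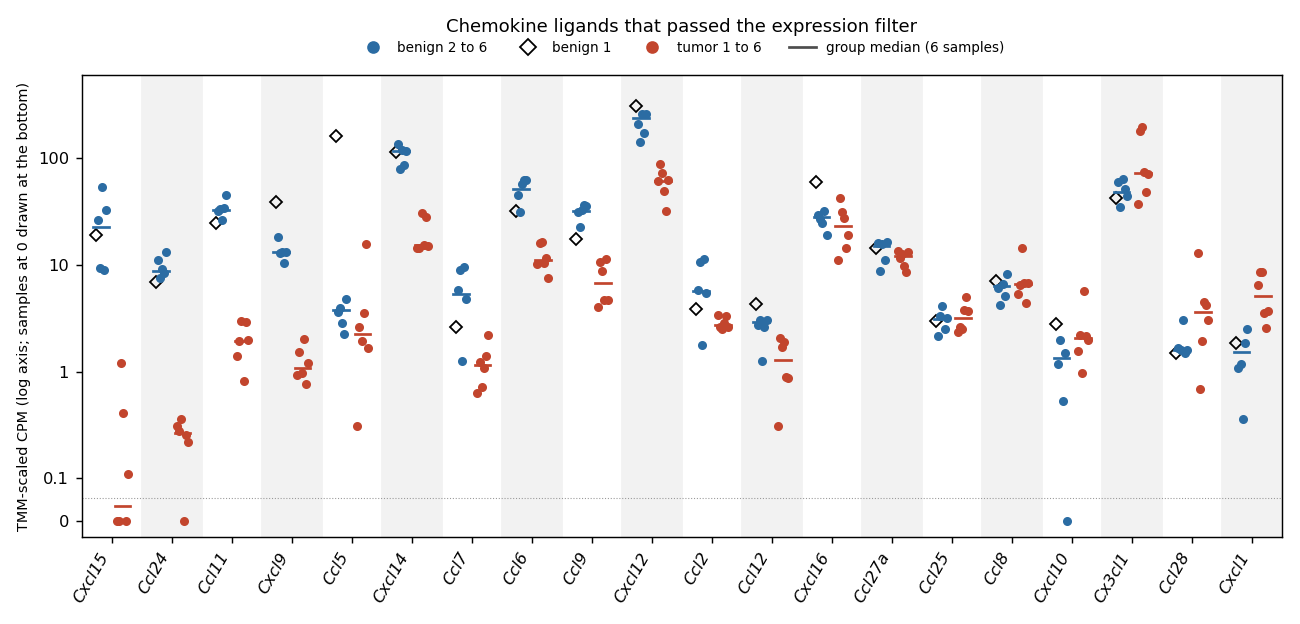
TMM-scaled CPM of the 20 chemokine ligands that passed the filter, in each of 12 samples on a log axis, ordered by log2 fold change, with samples at 0 drawn at the bottom and group medians as bars. Tumors lie apart from benign tissue for Cxcl15, Ccl24, Ccl11, Cxcl9, Cxcl14, Ccl6, Ccl9 and Cxcl12 on the lower side and for Cxcl1 on the upper side, while benign 1 stands far above all other samples for Ccl5.

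Ccl24 and Ccl11 had the lowest log2 fold changes of the CC ligands that passed the filter. Ccl11, or eotaxin-1, recruits eosinophils through Ccr3 and is made by fibroblasts and adipose stroma. It lay between 24.8 and 45.3 CPM in benign tissue (median 32.7) and between 0.81 and 3.01 CPM in tumors (median 1.95). It fell by 4.0 on the log2 scale (standard error 0.29, adjusted p = 1.6e-07). Ccl24, or eotaxin-2, is a product of alternatively activated macrophages and acts on the same receptor. It lay between 6.85 and 13.1 CPM in benign tissue (median 8.73) and between 0 and 0.361 CPM in tumors (median 0.265), that is 379 counts in benign tissue and 11 in tumors. Ccl24 fell by 5.2 (standard error 0.39, adjusted p = 1.9e-07). For both genes the groups were far apart, and leaving out benign 1 moved the log2 fold changes only to -4.02 and -5.23. Ccr3 was near 0 throughout, with 5 counts in benign tissue and 6 in tumors.

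Ccl8, a monocyte chemokine that in mice acts on Ccr8, did not follow them. It lay between 4.22 and 8.17 CPM in benign tissue (median 6.34) and between 4.35 and 14.4 CPM in tumors (median 6.61), with tumor 3 highest, and it did not pass (log2 fold change 0.25, adjusted p = 0.48). Ccl1, another ligand of Ccr8, had 4 counts in benign tissue and 3 in tumors. Ccl11, Ccl8 and Ccl1 lie in 1 cluster with Ccl2, Ccl7 and Ccl12 (chr11:82035571-82305690).

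Ccl2, Ccl7 and Ccl12 are the monocyte chemoattractants that act on Ccr2. Ccl2 lay between 1.78 and 11.4 CPM in benign tissue (median 5.68) and between 2.53 and 3.42 CPM in tumors (median 2.73). The groups overlapped because benign 4, at 1.78 CPM, lay below every tumor, and the tumors spread far less than the benign samples (SD 0.388 against 3.76 CPM, n = 6 each). Ccl2 fell by 1.17 (standard error 0.37, adjusted p = 0.017). Ccl7 lay between 1.25 and 9.61 CPM in benign tissue (median 5.32) and between 0.623 and 2.2 CPM in tumors (median 1.16), and fell by 2.17 (standard error 0.48, adjusted p = 0.0019). Benign 4 was also the lowest benign sample for Ccl7, and benign 3 and 5 were the highest for both. Ccl12 fell by 1.12 (adjusted p = 0.030), from a benign range of 1.25 to 4.26 CPM to a tumor range of 0.311 to 2.06 CPM. Without benign 1 its log2 fold change was -0.92 (adjusted p = 0.074).

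Their receptor Ccr2, which brings monocytes out of the blood, lay between 2.49 and 7.6 CPM in benign tissue (median 4.58) and between 0.311 and 3.07 CPM in tumors (median 2.03). Benign 6 was the only benign sample within the range of the tumors. Ccr2 fell by 1.39 (standard error 0.45, adjusted p = 0.018) and by 1.16 without benign 1 (adjusted p = 0.046).

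Among the inflammatory CC ligands that act on Ccr1 and related receptors, Ccl6 and Ccl9 fell together. Both are rodent chemokines of macrophages and other myeloid cells, and they are neighbours in a cluster with Ccl5, Ccl3 and Ccl4 (chr11:83525778-83664683). Ccl6 lay between 31.3 and 63 CPM in benign tissue (median 51.5) and between 7.57 and 16.4 CPM in tumors (median 11). Ccl9 lay between 17.6 and 36.6 CPM (median 31.9) and between 4.05 and 11.4 CPM (median 6.7). Neither gene had a tumor within the benign range. The log2 fold changes were -2.01 (standard error 0.25, adjusted p = 1.6e-05) for Ccl6 and -1.99 (standard error 0.30, adjusted p = 9.4e-05) for Ccl9, and without benign 1 both were -2.06. Ccl3 and Ccl4, the macrophage inflammatory proteins, did not pass the filter. Ccl3 had 16 counts in benign tissue and 43 in tumors, and Ccl4 had 13 and 26.

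Ccl5, which T cells and other leukocytes make on activation, depended on benign 1 for its direction. It stood at 161.0 CPM in benign 1, between 2.25 and 4.79 CPM in benign 2 to 6 and between 0.311 and 15.7 CPM in tumors, with tumor 5 highest. The log2 difference was -2.77 (standard error 1.23, adjusted p = 0.072) with benign 1 and 0.35 (standard error 0.70, adjusted p = 0.70) without it.

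Ccr1, a receptor of several of these ligands, rose where Ccl6 and Ccl9 fell. It is found on macrophages and other myeloid cells, and it lay between 1.85 and 4.09 CPM in benign tissue (median 2.65) and between 3.11 and 10.7 CPM in tumors (median 4.53). The groups overlapped through tumors 1 and 5, at 3.11 and 3.96 CPM. Ccr1 rose by 1.15 (standard error 0.36, adjusted p = 0.017) and by 1.11 without benign 1. Ccr1, Ccr3, Ccr2, Ccr9 and Cxcr6 are neighbours on chromosome 9, so Ccr1 and Ccr2, which moved in opposite directions, lie near each other.

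The 8 macrophage markers summed to 373.4 to 521.3 CPM in benign tissue and 196.4 to 340.3 CPM in tumors, and 7 of the 8 fell. They were thus lower in the tumors in which Ccr1 and Cx3cr1 were higher and Ccl6, Ccl9 and Ccl24 lower, and their part in these differences was not tested. In bulk tissue fewer cells of a type and less RNA per cell cannot be told apart.

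The ligand and receptor of the CX3C family both rose. Cx3cl1, or fractalkine, is held on the membrane of epithelium and endothelium by a mucin stalk and released by the proteases Adam10 and Adam17. It lay between 34.6 and 64 CPM in benign tissue (median 48.2) and between 37.4 and 197.3 CPM in tumors (median 72.6). Tumors 2 and 3, at 180.9 and 197.3 CPM, were well above the rest, whereas tumors 1 and 5 lay within the benign range. Cx3cl1 rose by 1.04 (standard error 0.38, adjusted p = 0.035), and by the same 1.04 without benign 1 (adjusted p = 0.053). The call did not hold without benign 3, 4 and 6 together (log2 fold change 1.02, adjusted p = 0.14). Adam10 and Adam17 rose by 0.47 (adjusted p = 0.0013) and 0.65 (adjusted p = 5.1e-04).

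Cx3cr1, the receptor of fractalkine on tissue macrophages and monocytes, was the tested gene of the 30 with the largest rise. It lay between 2.13 and 13.7 CPM in benign tissue (median 10.9) and between 34.1 and 66.2 CPM in tumors (median 50.2), with a wide gap between the groups. It rose by 2.44 (standard error 0.40, adjusted p = 1.8e-04) and by 2.63 without benign 1. Benign 4 and 6, at 3.56 and 2.13 CPM, were lower than the other benign samples. Without benign 3, 4 and 6 together, the muscle-rich samples, the log2 fold change was 2.04 (adjusted p = 1.9e-04). Cxcl16, the other membrane-held ligand, did not pass (log2 fold change -0.39, adjusted p = 0.35). It lay between 19.2 and 59.7 CPM in benign tissue, highest in benign 1, and between 11.2 and 42.8 CPM in tumors. Its receptor Cxcr6, of tissue-resident lymphocytes, did not pass the filter, with 13.9 CPM in benign 1, 0.713 to 2.03 CPM in benign 2 to 6 and 0 to 0.81 CPM in tumors.

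Cxcl12 and its receptors did not move alike. Cxcl12, the homeostatic chemokine of stromal cells, lay between 142.7 and 307.5 CPM in benign tissue (median 236) and between 32 and 88.8 CPM in tumors (median 61.7). It fell by 1.88 (standard error 0.25, adjusted p = 3.1e-05) and by 1.73 without benign 1, and the groups did not overlap. Its signaling receptor Cxcr4 lay between 13.5 and 70.7 CPM in benign tissue (median 57.8) and between 38.1 and 103.2 CPM in tumors (median 57.6). Only benign 4 and 6, at 18 and 13.5 CPM, lay below the tumors, and Cxcr4 did not pass (log2 fold change 0.47, standard error 0.39, adjusted p = 0.33). Without benign 3, 4 and 6 its log2 fold change was 0.02 (adjusted p = 0.95).

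Ackr3, the atypical receptor that takes up Cxcl12, did fall. It lay between 30.6 and 89.6 CPM in benign tissue (median 41.2), with benign 4 and 6 highest, and between 4.45 and 12.9 CPM in tumors (median 5.72). It fell by 2.84 (standard error 0.34, adjusted p = 1.3e-05) and by 2.9 without benign 1.

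All 4 atypical receptors fell, and for each of them every tumor lay below every benign sample. Among all genes tested, 34.8% were called lower and 21.2% had every tumor below every benign sample. Ackr1, the Duffy antigen receptor that carries chemokines across the endothelium of venules, lay between 11.3 and 15.9 CPM in benign tissue (median 13.5) and between 0.135 and 1.09 CPM in tumors (median 0.865). It fell by 4.18 (standard error 0.34, adjusted p = 4.6e-07), the same value with and without benign 1. The benign samples were close to each other, with an SD of 1.6 CPM around a mean of 13.7 CPM. Ackr2, a scavenger of inflammatory CC ligands on lymphatic endothelium, lay between 3.56 and 7.28 CPM in benign tissue (median 5.71) and between 0.675 and 2.77 CPM in tumors (median 1.69). Its fall was the smallest of these receptors, at 1.69 (standard error 0.32, adjusted p = 5.5e-04). Ackr4, which removes the lymph node ligands Ccl19 and Ccl21, had 250 counts in benign tissue and 5 in tumors. It lay between 2.85 and 10.4 CPM in benign tissue (median 5.37) and at 0 in 3 of the 6 tumors with a highest value of 0.384 CPM. It fell by 5.58 (standard error 0.60, adjusted p = 5.2e-06).

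The 6 blood endothelium markers (Pecam1, Cdh5 and others) summed to 622.6 to 1167.7 CPM in benign tissue and 103.5 to 127.9 CPM in tumors, and all 6 fell. The 4 lymphatic endothelium markers summed to 59.5 to 75.8 CPM and 12.5 to 23.9 CPM. Of these 4, 3 fell and 1 did not pass the threshold. When benign 1 was left out, 3 of them fell and 1 rose, so this list did not move as a whole. The part of these markers in the falls of the atypical receptors was not tested.

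**Figure D3:**
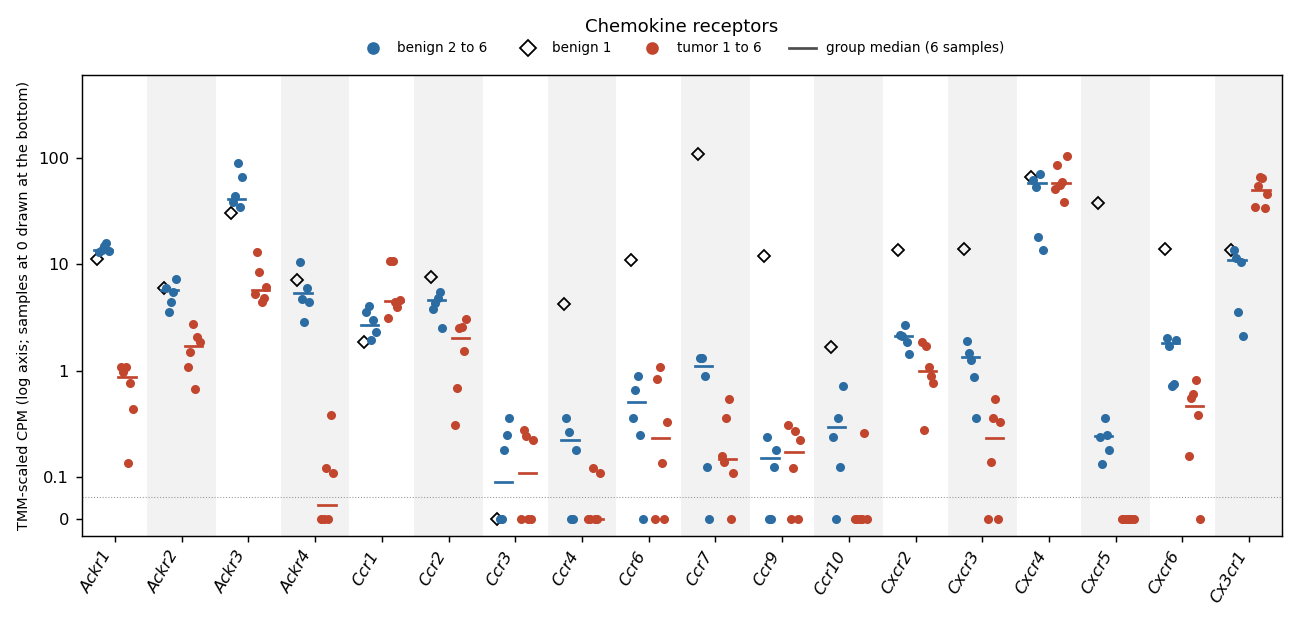
TMM-scaled CPM of 18 chemokine receptor genes in each of 12 samples on a log axis, with samples at 0 drawn at the bottom and group medians as bars. Tumors lie below benign tissue for Ackr1 to Ackr4 and above it for Cx3cr1, and for Ccr7, Ccr9, Ccr6, Cxcr3 and Cxcr5 the open diamond of benign 1 stands above all other samples.

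The ligands of epithelial surfaces fell in 1 case, rose in 1 and did not pass in 2. Cxcl14, a chemokine made constitutively by epithelium and stroma, lay between 78.5 and 134.8 CPM in benign tissue (median 116.1) and between 14.3 and 30.7 CPM in tumors (median 15.3). It fell by 2.46 (standard error 0.24, adjusted p = 2.0e-06) without overlap between the groups, and by 2.4 without benign 1. Ccl28, a mucosal ligand of Ccr3 and Ccr10, rose by 1.32 (standard error 0.54, adjusted p = 0.055). Its tumors spread from 0.688 to 12.9 CPM, and without tumor 1, the highest, its log2 fold change was 0.73 (adjusted p = 0.16). Ccl25, the thymic and gut ligand of Ccr9, and Ccl27a, the skin ligand of Ccr10, did not pass (log2 fold changes 0.14 and -0.25, adjusted p = 0.66 and 0.29). Ccl20 and Cxcl17 did not pass the filter. Cxcl17 stood at 3.21 and 3.02 CPM in benign 4 and 6 and at most at 0.499 CPM in every other sample.

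Cxcl12, Cxcl14 and Ccl11 are made by stromal cells, and the 6 fibroblast markers (Pdgfra, Dcn, Lum and others) summed to 3281.4 to 7422.6 CPM in benign tissue and 331.3 to 715.7 CPM in tumors. The 6 adipocyte markers summed to 7160.8 to 16602.5 CPM and 8.39 to 87.6 CPM, and the 6 basal epithelium markers to 679.9 to 1509.2 CPM and 21.4 to 103.3 CPM. All members of these marker lists fell, where 34.8% of all genes tested were lower and 28.2% higher. Of the 6 luminal epithelium markers 5 rose and 1 fell, with sums of 882.2 to 2426.7 CPM in benign tissue and 2532.0 to 4123.0 CPM in tumors. The part of tissue makeup in the differences of these ligands was not tested.

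Ccl19, Ccl22, Cxcl13, Ccr7 and Cxcr5 were found almost wholly in 1 sample, benign 1. They bring B cells, T cells and dendritic cells into lymphoid tissue and place them there. Benign 1 held 152.7 CPM of Ccl19, 117.8 CPM of Cxcl13, 102.1 CPM of Ccl22, 108.0 CPM of Ccr7 and 37.4 CPM of Cxcr5. In benign 2 to 6 none of these 5 genes exceeded 1.78 CPM, and in tumors none exceeded 1.75 CPM. None of the 5 passed the filter, since their counts came mostly from a single library. Not all ligands of lymphoid tissue followed these 5. Cxcl12 lay at 307.5 CPM in benign 1 and at 142.7 to 262.1 CPM in benign 2 to 6. Ccl21d, a copy of the Ccl21 gene, had 0 counts in benign 1 and 7 in benign 2.

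In all, 14 of the 52 genes were at 1 CPM or more in benign 1 and at least 5 times the median of benign 2 to 6. The share of all genes that meet this rule was not computed, so the count cannot be called particular to chemokines. The ratio of benign 1 to that median was 272.5 for Ccl22, 156.7 for Cxcr5, 142.8 for Ccl19, 121.3 for Ccr7 and 98.7 for Cxcl13. Ccr9, a gut-homing receptor, had a ratio of 96.4 and Ccl5 one of 44.9. Ccr6 and Ccr4, receptors of B cells and T cell subsets, had 30.5 and 24, and the others (Cxcr3, Cxcr6, Ccl17, Ccr10 and Cxcr2) had 6.41 to 11.1. By contrast Ccl11, Cxcl14, Cxcl12 and the 4 atypical receptors lay between 0.702 and 1.48 times that median. The B and T cell markers that benign 1 also held are given above. The dendritic cell markers other than Ccl22 summed to 98.9 CPM in benign 1 against 33.4 to 46.7 CPM in benign 2 to 6. Single dendritic cell markers ranged from 0.989 (Cd209a) and 1.28 (Zbtb46) to 19.9 (Flt3) times the median of benign 2 to 6. The part of these cells in the chemokine values was not tested.

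**Figure D4:**
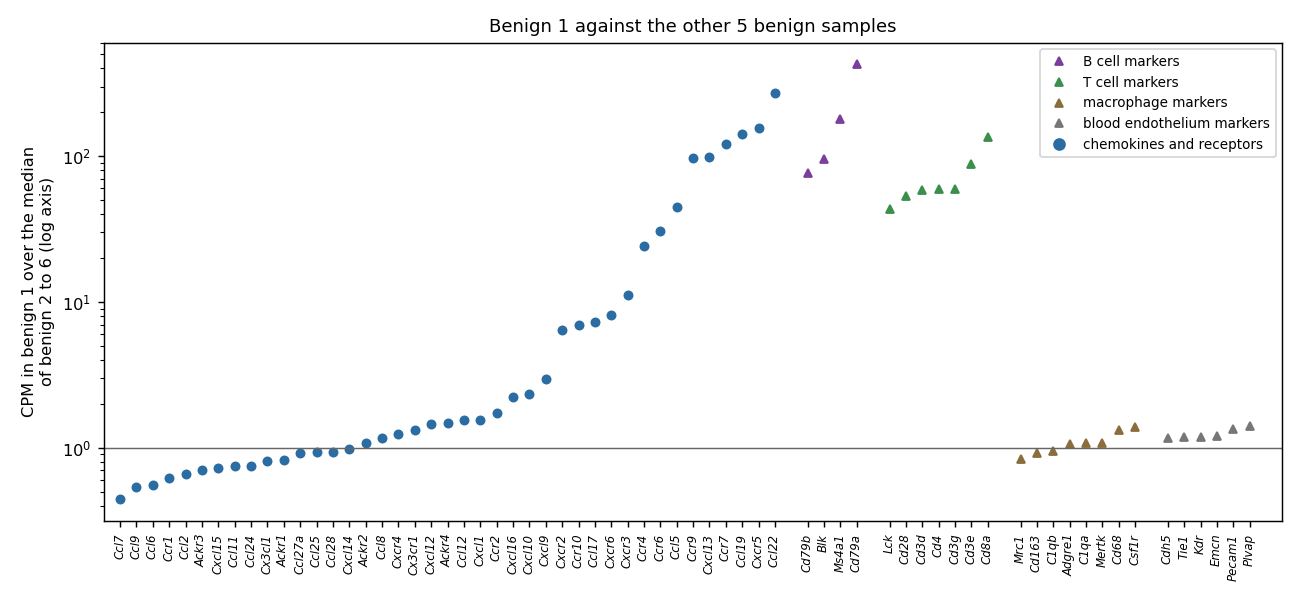
CPM of benign 1 over the median of benign 2 to 6, on a log axis, for the chemokine genes at 1 CPM or more in benign 1 (circles) and for marker genes of 4 cell types (triangles), leaving out genes whose median was 0. Chemokine genes with high ratios, led by Ccl22 at 272.5, stand at the height of the B and T cell markers, while macrophage and endothelial markers lie near 1.

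Some of these genes were lower in tumors even against the other 5 benign samples. Ccl19 had 34 counts over benign 2 to 6 and 2 over the 6 tumors, a ratio of 22.4 after scaling (95% exact interval 5.74 to 192.2, for counting error only), and every tumor lay below every benign sample. Cxcl13 had 40 and 4 counts, and here too the lowest benign sample, at 0.749 CPM, lay above the highest tumor, at 0.256 CPM. Among all genes tested without benign 1, 22.5% had every tumor below every benign sample, but neither Ccl19 nor Cxcl13 was tested. Cxcr5 had 8 and 0 counts, at least 3.51-fold lower in tumors against a floor of 3 counts over the group, and 79.9-fold with benign 1. For Ccr4 the ratio was 3.95 without benign 1, with an interval of 0.706 to 40 that includes 1. For Ccr10 it was 5.92 (1.23 to 56.3). Its 2 tumor counts both came from tumor 5, at 0.256 CPM, within the range of benign 2 to 6 (0 to 0.71 CPM). These intervals too are for counting error only. Others of these genes were not clearly lower. Over benign 2 to 6 and over the 6 tumors, Ccl22 had 21 and 18 counts and Ccr6 15 and 19. Ccr9 had 4 and 7 counts, and Ccl17 7 and 17.

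The remaining genes that did not pass the filter were low in every sample. Ccl1, Ccl3, Ccl4, Ccl17, Ccl20, Ccl21d, Ccr3, Ccr10 and Cxcl11 lay under 3 CPM throughout. Ccl21d, from a set of nearly identical copies of the Ccl21 gene, had 8 counts in benign tissue, 7 of them in benign 2, and 1 in tumors. Ccl21d, Ccl27a and Ccl19 have near-identical copies in the mouse genome among which reads could be split, so their values are uncertain. Exons of Ackr1 overlap those of Cadm3 on the same strand, and those of Ccr9 overlap the gene model Gm17200 on the same strand. Exons of Ackr4, Ccl25, Ccl27a, Ccr9, Cxcl10, Cxcl16 and Cxcr5 overlap those of a listed gene on the other strand, which the directional library kit separates.

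Levels were compared between genes per kilobase of exon, as shares of the summed level of all ligands or all receptors with a gene model (51 of 52). Among ligands Cxcl14 had the largest median share in benign tissue, at 22.2%, followed by Ccl11 at 12.4%, Ccl6 at 10.9% and Cxcl12 at 9.4%. In tumors Cx3cl1 had the largest median share, at 21.2% (range 13.4% to 34.5%), followed by Ccl8 at 14.9% and Cxcl14 at 10.4%. Ccl11 took 1.85% in tumors. The highest ligand was Ccl8 in tumor 1 and Ccl5 in tumor 5. Among receptors Cxcr4 had the largest median share in both groups. It was 35.2% in benign tissue (range 17% to 55.6%) and 64.6% in tumors (54.4% to 77.6%). Without benign 1 the benign median was 46.9%. The highest receptor was Ccr7 in benign 1 and Ackr3 in benign 4 and 6. The median shares in benign tissue and in tumors were 2.61% and 20.5% for Cx3cr1, 18.8% and 4.07% for Ackr3, and 15.8% and 1.17% for Ackr1. With the longest transcript as the length, the median shares in benign tissue were 12.1% for Cxcl12, 11.9% for Ccl6 and 10.9% for Ccl11. Cxcl12 and Ccl6 thus both exceeded Ccl11. In tumors Cxcl14 then took 8.67%, below the 9.03% of Cxcl12, and Ccl27a went from 4.23% to 8.37%. A share depends on all members of its set, so a larger share is not by itself a higher level.

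The sum over all 33 ligands was 450.4 to 1242.2 CPM in benign tissue (median 677.5), with benign 1 highest, and 190.2 to 415.4 CPM in tumors (median 231.5), so no tumor reached the benign range. The sum over the 19 receptors was 119.1 to 366.6 CPM (median 156.2) and 91.8 to 179.9 CPM (median 153.5), and here the groups overlapped.

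The counts of the lists below are to be read beside the 28.2% higher and 34.8% lower among all genes tested. Of 23 genes of receptor signaling, all of which passed the filter, 9 rose and 8 fell. Pik3cg, the PI3-kinase subunit activated by G protein beta-gamma dimers, rose most (10.5 ± 8.31 CPM in benign tissue, 93.7 ± 25.7 CPM in tumors, SD, n = 6 each, log2 fold change 3.17, adjusted p = 2.6e-05). Gnai1, an inhibitory G protein alpha subunit, fell most (144.7 ± 23.9 and 0.995 ± 0.745 CPM, -7.12, adjusted p = 1.7e-08). Its relatives Gnai2 (-0.08, adjusted p = 0.66) and Gnai3 (0.39, adjusted p = 0.026) did not fall.

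Of 17 genes of receptor desensitization, 14 were tested, 9 fell and 0 rose, with the regulator of G protein signaling Rgs18 lowest at -3.76 (adjusted p = 9.3e-07). Rgs3 had the smallest p of this list, at -2.67 (adjusted p = 3.6e-08). No gene of this list was higher at an unadjusted p under 0.05 in edgeR either (0 genes), and DESeq2 called 1 higher (Grk3). Without benign 1, 9 fell and 3 rose. Of 17 genes of chemokine processing and presentation, 16 were tested, 7 rose and 4 fell. Sdc4, a heparan sulfate proteoglycan of the cell surface that holds chemokines, rose most (131.9 ± 22 and 542.2 ± 150.8 CPM, 2.04, adjusted p = 3.0e-06). Mmp2, a matrix protease that cleaves chemokines, fell most (-3.05, adjusted p = 1.5e-06).

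Of 13 chemokine relatives that the symbols leave out, 11 were tested, 4 rose and 5 fell. Mif, a cytokine that binds Cxcr2 and Cxcr4, rose by 1.06 (adjusted p = 0.0032), and Rarres2, the adipose chemoattractant chemerin, fell by 5.94 (adjusted p = 4.7e-09). Its receptor Cmklr1 fell by 2.38 (adjusted p = 2.0e-04). Pf4, the platelet chemokine Cxcl4, fell by 3.55 (adjusted p = 2.2e-07). Of 17 inducers of chemokine transcription, 14 were tested, 6 fell and 0 rose. At an unadjusted p under 0.05 edgeR gave 0 higher as well, and DESeq2 called 1 higher (Il1b). The lymphotoxin Ltb fell most (-3.95, adjusted p = 0.012), but by 0.84 without benign 1, in which fit 6 fell and 1 rose. Ifngr1, the interferon gamma receptor, fell by 2.14 (adjusted p = 2.2e-07), and Nfkbia, the inhibitor and target of NF-kB, by 1.87 (adjusted p = 1.0e-06). Of the NF-kB subunits in this list, Rela and Nfkb1 did not pass (0.08 each, adjusted p = 0.63 and 0.68). Relb fell by 1.44 (adjusted p = 3.9e-04) and Nfkb2 by 1.05 (adjusted p = 0.0013). Without benign 1, Nfkb1 rose by 0.27 (adjusted p = 0.044).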

How the data were processed

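RNA was extracted from 6 tumors and 6 benign samples, and libraries were made with a directional kit after poly A enrichment. According to the submitters' processing notes, reads were trimmed with Trim Galore and quantified with Salmon, with mm10 as the build. The version of Salmon and the annotation are not given in the sources used here. The authors deposited 1 table of 16411 genes with whole-number gene counts estimated by Salmon and no scaling. No gene in it sums to fewer than 5 counts. All columns were mapped to a sample (0 were left over). Samples were grouped by their labels as tumor or benign, and nothing pooled them. Replicates within a group differed by more than sampling noise (smallest chi-square per degree of freedom 12.5 in benign tissue and 16.4 in tumors).

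From these counts, genes were kept by filterByExpr (min.count 10, min.total.count 15, per group). After TMM scaling, tumors were compared with benign tissue in edgeR 4.0.16 (R 4.3.3) by its two-sided quasi-likelihood F-test. P-values were adjusted by the Benjamini-Hochberg method across the genes tested, and an adjusted p under 0.1 was a call. The study itself used DESeq2, and DESeq2 1.42.0 was an alternative here. Further alternatives were upper-quartile scaling, library size alone, DESeq2 size factors, a stricter filter (10 counts or more in each sample) and a looser one (1 count or more over all samples), calls at 0.05, the replicate number as a block, and leaving out samples. Genes near 0 in a group are given as counts, with bounds against a floor of 3 counts or exact 95% intervals. Total counts of 5240853 to 8588567 per sample set the precision, so ratios of genes with few counts are wide.

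The genes, the lists around them and the tests were chosen with earlier results of these data known. Values are given in full for tested genes with a mean of at least 5 CPM in the higher group that were called with a log2 fold change of at least 1 in size, and for those whose call, sign or value (by over 1) differed without benign 1. Other genes were named for completeness. Of the lists around them, the called genes with the largest and smallest log2 fold change were named. Gnai2, Gnai3, Rgs3, Adam10, Adam17, Cmklr1, Pf4, Ifngr1, Nfkbia, Rela, Nfkb1, Relb, Nfkb2, Grk3 and Il1b were named after their values were seen. Gene models and lengths came from GENCODE M21 on GRCm38 and promoters from RefSeq (GRCm38.p6), which may differ from the annotation behind the counts. Members of these families that are in no row of the table were not analysed here. Values of 1 receptor gene and of 1 marker gene are not reported here, though the counts and sums include them.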

Additional observations from a re-analysis of the deposited data

Results flagged for a closer look

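A sample was flagged when it lay far from the other 5 of its group, by Dixon's test at the 95% level, among genes that reached 1 CPM in that group. Of 79 groups looked at, 24 values were flagged. A chance rate of about 1 in 20 groups applies to normally distributed values, which CPM of low genes need not be. A low gene could also reach 1 CPM only through the sample then flagged, as Ccl17 did in benign 1 (1.3 CPM, the others at most 0.396 CPM). The number of flags can therefore not be set against that rate.

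Benign 1 accounted for 15 of them, all high. They were Ccl5 (161.0 CPM), Ccl19 (152.7 CPM), Cxcl13 (117.8 CPM), Ccr7 (108.0 CPM), Ccl22 (102.1 CPM), Cxcl16 (59.7 CPM), Cxcl9 (39.1 CPM), Cxcr5 (37.4 CPM), Cxcr3 (13.9 CPM), Cxcr6 (13.9 CPM), Cxcr2 (13.5 CPM), Ccr9 (12 CPM), Ccr6 (10.9 CPM), Ccr4 (4.26 CPM) and Ccl17 (1.3 CPM). For Cxcl16 and Cxcl9, which the other benign samples also held, the next highest values were 32.2 and 18.3 CPM.

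The other 9 flags were spread over 6 samples. Tumor 4 stood high for Cxcl10 (5.67 CPM, the other tumors 0.963 to 2.2 CPM), Cxcl11 (2.83 CPM, the others at most 0.275 CPM) and Ccl22 (1.75 CPM, the others at most 0.413 CPM). Tumor 3 stood high for Ccl8 (14.4 CPM, the others at most 6.81 CPM) and Cxcl15 (1.2 CPM, the others at most 0.405 CPM). Tumor 1 stood high for Ccl28 (12.9 CPM, the others at most 4.45 CPM), and benign 4 was the high sample of the benign group for the same gene (3.03 CPM, the others 1.48 to 1.67 CPM). Tumor 5 stood high for Ccl5 (15.7 CPM, the others at most 3.51 CPM). Benign 5 stood high for Ccl20 (1.62 CPM, the others at most 0.371 CPM).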

How the results depend on the processing

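Of the 30 tested genes, 26 kept their direction and their side of the threshold in every alternative that gave them an adjusted p. Ccl5, Ccl28 and Cx3cl1 were among the exceptions. Ccl5 reversed to 0.35 without benign 1, its log2 fold change ranged from -3.8 to 0.35 as single samples were left out, and it missed the threshold without tumor 1, 2, 3, 4 or 6 (adjusted p 0.12 to 0.13). DESeq2 gave no adjusted p for Ccl5 and Cxcr2. Ccl28 was lost without tumor 1, and Ccl28 and Cx3cl1 without benign 3, 4 and 6 together, where their log2 fold changes were 1.57 and 1.02 (adjusted p 0.12 and 0.14).

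The counts of genes called moved with the filter, the tool and the threshold. Genes higher, 5 in the report, numbered 8 with DESeq2, 9 with the loose filter (1 count or more over all samples) and 3 without benign 3, 4 and 6. Genes lower, 18 in the report, numbered 29 with the loose filter and 6 with the strict one (10 counts or more in each sample), which leaves 15 of the genes. Ligands higher, 3 in the report, numbered 6 with DESeq2, 6 with the loose filter, 1 with the strict one and 1 without benign 3, 4 and 6. Ligands lower went from 12 to 5 and receptors lower from 6 to 1 with the strict filter, and receptors lower to 13 with the loose one. With single samples left out, genes higher ranged from 5 to 6 and lower from 17 to 18, ligands from 2 to 3 and 11 to 12, and receptors from 2 to 3 and 6 to 6. The genes of the pathway lists called higher ranged from 19 to 25 and lower from 31 to 35.

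The numbers of the replicates do not pair the samples, which came from different mice, and same-numbered samples did not deviate together (r from -0.12 to 0.10 over the 6 numbers). With the replicate block 3 genes were higher, 1 of them a ligand, and Ccl28, Ccl5 and Cx3cl1 missed the threshold.

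Alternatives of the fit without benign 1, and of counts without a test, were chosen after seeing the data. In that fit 6 genes were higher, 10 with DESeq2, 3 at a threshold of 0.05 and 3 without benign 6, with a range of 3 to 6 as single samples were left out. Against 17 lower, the strict filter gave 6. The number of genes whose tumors all lay below benign tissue ranged from 12 to 15 as single samples were left out. Depth limits the genes that did not pass the filter.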
